A study of Mus musculus with 6 samples.

Results

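MiR-103-3p and miR-107-3p are a pair of near-identical microRNAs (miRNAs) encoded in introns of the pantothenate kinase genes. They were taken by name from a table of 1251 mouse miRNA arms, so 2 of 1251 arms are described here, and both were found. The animals were C57BL/6J mice, aged 5 to 6 weeks at the start, kept for 11 weeks on a high fat diet in which fat gave 45%, protein 20% and carbohydrate 35% of the energy. Per the series' design text the diet held 6.75% eicosapentaenoic acid (EPA), an omega-3 fatty acid of fish oil. After 4 hours of fasting, RNA was taken from 2 depots: interscapular brown fat, which burns fuel for heat (BF-EPA 3, 4 and 5), and inguinal subcutaneous fat, a white storage depot (SUB-EPA 1, 3 and 8). All 6 small RNA libraries are from EPA-fed mice, so no effect of EPA can be read from them; libraries of the diet without EPA were not analysed here. The comparison is therefore between the tissues, and each difference is given as brown minus subcutaneous.

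A miRNA guides the Argonaute protein to messenger RNAs that pair with its seed, bases 2 to 8 from the 5′ end, and lowers their translation and stability. Pantothenate kinases, the hosts of miR-103 and miR-107, catalyse the first committed step of coenzyme A synthesis. In liver and fat of mice the pair is known as a negative regulator of insulin sensitivity, with caveolin-1, a protein of caveolae that stabilizes the insulin receptor, as a described target.

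The mature sequences are shown because 1 base separates them. Below, from RefSeq on GRCm38.p6, the seed and the differing base are in capitals.
miR-103-3p: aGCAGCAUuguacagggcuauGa
miR-107-3p: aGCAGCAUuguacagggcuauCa

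Both are 23 bases long with a GC content of 47.8%, and 22 of the 23 bases are identical. The substitution from miR-103-3p to miR-107-3p is G22C, counted from 1 at the 5′ end. The seed is therefore shared, and among the 1002 arms of the table with a RefSeq mature sequence only these 2 carried it. A read that ends within the first 21 bases carries nothing that tells the 2 apart. How such reads were assigned is not given in the sources used here, so both the split between the 2 miRNAs and their sum depend on that counting. Elsewhere in the table, 5 sets of tested rows held the same value in all 6 libraries, among them miR-199a-3p with miR-199b-3p and miR-28a-5p with miR-28c. Whether reads that match several rows were counted in each was not tested. The rows of miR-103-3p and miR-107-3p were not identical in any library.

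MiR-103-3p has 2 gene copies and miR-107-3p has 1. The hairpins below, also from RefSeq, show the mature 3p arm in capitals, with surrounding bases that differ between the loci.
Mir103-1: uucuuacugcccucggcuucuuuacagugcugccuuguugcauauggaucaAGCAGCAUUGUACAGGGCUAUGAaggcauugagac
Mir103-2: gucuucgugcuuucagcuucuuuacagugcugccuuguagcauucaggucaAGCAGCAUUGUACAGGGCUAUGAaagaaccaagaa
Mir107: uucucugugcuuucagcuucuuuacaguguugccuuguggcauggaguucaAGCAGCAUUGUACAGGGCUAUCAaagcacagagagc

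On GRCm38, the assembly also called mm10, Mir103-1 lies at chr11:35782396-35782481 on the plus strand, inside Pank3. Mir103-2 lies at chr2:131288052-131288137 on the plus strand, inside Pank2. Mir107 lies at chr19:34820687-34820773 on the minus strand, inside Pank1. Each hairpin is on the strand of its host and in intron 5 of the host's principal transcript of 7 exons, and it overlaps an exon of none of the host's GENCODE M21 transcripts. The introns are 1740 bases long in Pank3, 5801 in Pank2 and 7282 in Pank1. Since both copies of miR-103 give the same 3p arm, its level is a sum over Pank2 and Pank3 that cannot be split. Host gene RNA was not measured in these libraries.

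The 2 miRNAs differed between the tissues in opposite directions. Subcutaneous fat held 4.19-fold more miR-103-3p, and brown fat held 3.78-fold more miR-107-3p. The deposited values are log2 abundances with nearly equal distributions across the libraries, by a step not described in the sources used here. A level is thus relative to the rest of its library, and the read depth behind it is unknown from the table. In bulk tissue, fewer cells of a type and less miRNA per cell cannot be told apart.

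MiR-103-3p had log2 levels of 11.88, 11.75 and 11.81 in BF-EPA 3, 4 and 5, and of 13.56, 14.05 and 14.02 in SUB-EPA 1, 3 and 8. Every subcutaneous library lay above every brown one. The brown libraries were close together (11.81 ± 0.066, SD, n = 3), and the subcutaneous mean was 13.88 ± 0.27 (SD, n = 3), with SUB-EPA 1 the lowest. The difference was -2.07 ± 0.17 (SE, 95% confidence interval -2.48 to -1.65, limma adjusted p = 0.000106).

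MiR-107-3p had log2 levels of 11.34, 10.65 and 11.65 in BF-EPA 3, 4 and 5, and of 9.27, 9.21 and 9.40 in SUB-EPA 1, 3 and 8. Here every brown library lay above every subcutaneous one. The larger spread was now in brown fat (11.21 ± 0.51, SD, n = 3), with BF-EPA 4 the lowest, against 9.30 ± 0.10 (SD, n = 3) in subcutaneous fat. The difference was 1.92 ± 0.28 (SE, 95% confidence interval 1.24 to 2.60, limma adjusted p = 0.00135).

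Such differences were common in the table. Of the 269 arms tested, 33.5% passed a limma adjusted p of 0.05 as higher in brown fat and 35.7% as lower, 69.1% in all. The groups did not overlap for 74%, with brown fat above for 33.8% and below for 40.1%. That each of the 2 miRNAs was called is thus near the background. Among the tested arms, 54 lay further below zero than miR-103-3p and 68 further above than miR-107-3p. The median difference of all tested arms was -0.45; relative to it, miR-103-3p differed by -1.61 and miR-107-3p by 2.37. With median-of-ratios scaling, which moved that median to -0.04, the differences were -1.65 for miR-103-3p and 2.34 for miR-107-3p, so neither direction turned.

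**Figure D1:**
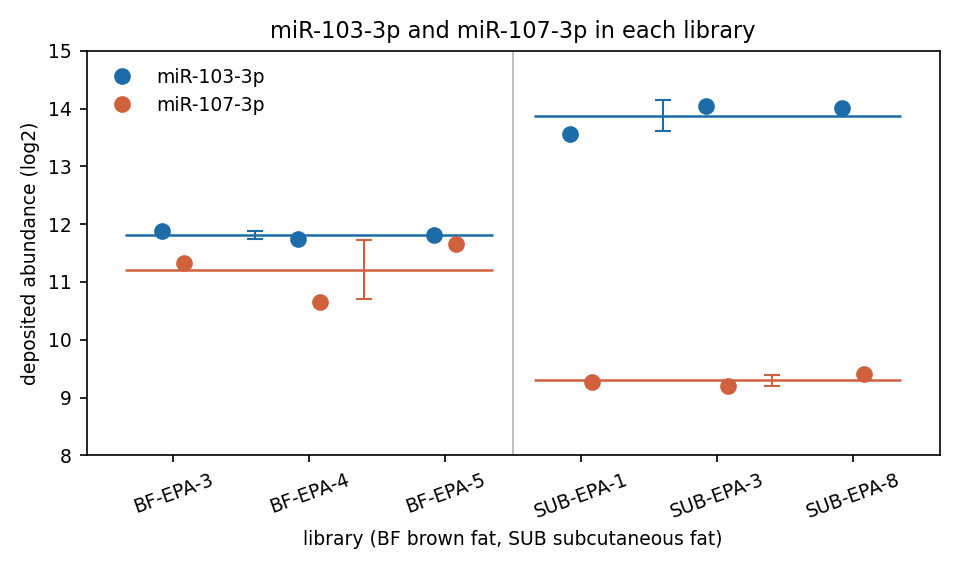
Log2 abundance (y axis) of miR-103-3p and miR-107-3p in each of the 6 libraries (x axis); horizontal lines are tissue means and error bars 1 SD over 3 libraries. The 2 miRNAs lie close together in brown fat and far apart in subcutaneous fat, with means of 13.88 and 9.30 there.

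**Figure D2:**
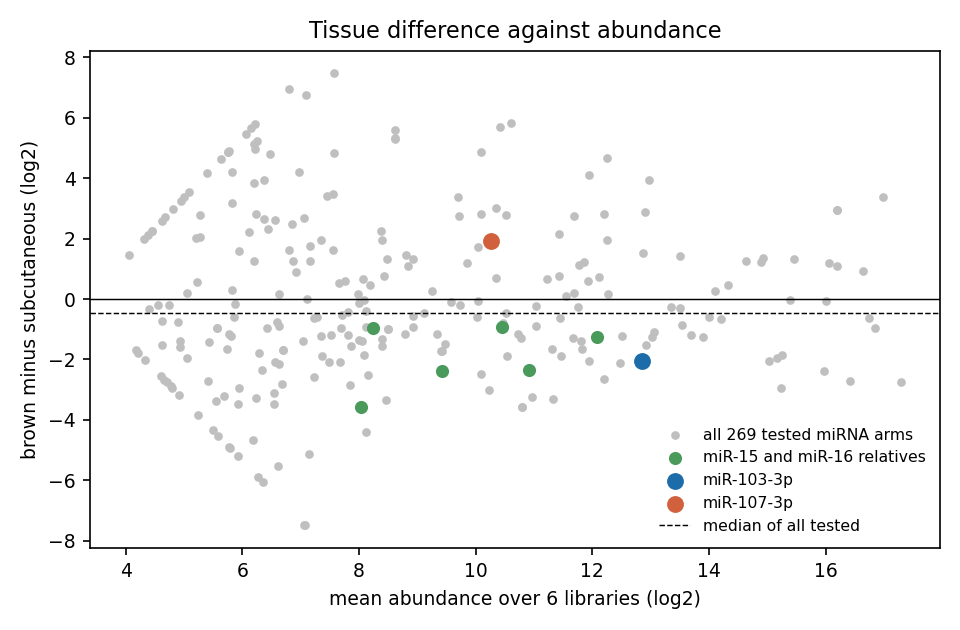
Brown minus subcutaneous log2 difference (y axis) against mean log2 abundance (x axis) for the 269 tested arms, with the 2 miRNAs and their seed relatives in colour; the dashed line is the median of -0.45. MiR-103-3p at -2.07 and miR-107-3p at 1.92 lie on opposite sides, inside the range of other arms of like abundance.

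The positions of the 2 miRNAs in the order of abundance moved accordingly. Of all 1251 arms, with rank 1 the most abundant, miR-103-3p ranked 55, 57 and 56 in BF-EPA 3, 4 and 5 and 33, 26 and 27 in SUB-EPA 1, 3 and 8. MiR-107-3p ranked 65, 79 and 59 in the same brown libraries and 107, 110 and 104 in the subcutaneous ones. The ranks did not overlap between the tissues for either miRNA. MiR-103-3p stood above miR-107-3p in all 6 libraries, but in BF-EPA 5 the 2 were only 3 ranks apart.

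The ratio of the 2 levels combines the same values into 1 number per library and is not a separate result. MiR-103-3p was 1.46-fold, 2.14-fold and 1.11-fold as abundant as miR-107-3p in BF-EPA 3, 4 and 5. In SUB-EPA 1, 3 and 8 the ratio was 19.6-fold, 28.7-fold and 24.5-fold. On the log2 scale, miR-107-3p relative to miR-103-3p was -0.60 ± 0.47 (SD, n = 3) in brown and -4.58 ± 0.28 (SD, n = 3) in subcutaneous fat, a difference of 3.99. An exact two-sided permutation test gave p = 0.10, the smallest value that 3 against 3 libraries allow. A ratio within a library does not depend on how that library was scaled by a single factor. A step that makes distributions nearly equal need not be such a scaling, and it can change the ratio, the sum and the shares. Its effect on them was not tested. Since both sequences have the same GC content, removing each library's GC trend shifts both by the same amount.

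On the linear scale (2 to the power of the deposited value), the pair summed to 6351, 5046 and 6803 units in BF-EPA 3, 4 and 5. The sums were 12732, 17568 and 17244 units in SUB-EPA 1, 3 and 8, all above the brown ones. The sum stood at 12.56 ± 0.23 (SD, n = 3) on the log2 scale in brown and 13.94 ± 0.26 (SD, n = 3) in subcutaneous fat, a difference of -1.38, or 2.61-fold, which was -0.96 with median-of-ratios scaling. It made up 0.209% to 0.281% of a brown library and 0.527% to 0.727% of a subcutaneous one.

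MiR-107-3p supplied 40.7%, 31.9% and 47.4% of the summed abundance in BF-EPA 3, 4 and 5. Its share was 4.86%, 3.36% and 3.93% in SUB-EPA 1, 3 and 8. In the deposited values, the sum over both rows was thus lower in brown fat with a larger share of miR-107-3p, and higher in subcutaneous fat with nearly all of it in the miR-103-3p row. Reads counted in both rows, or left out of both, would alter these sums and shares. The higher miR-107-3p of brown fat did not offset its lower miR-103-3p: the mean sums were 6067 ± 913 units in brown and 15848 ± 2703 units in subcutaneous fat (SD, n = 3).

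**Figure D3:**
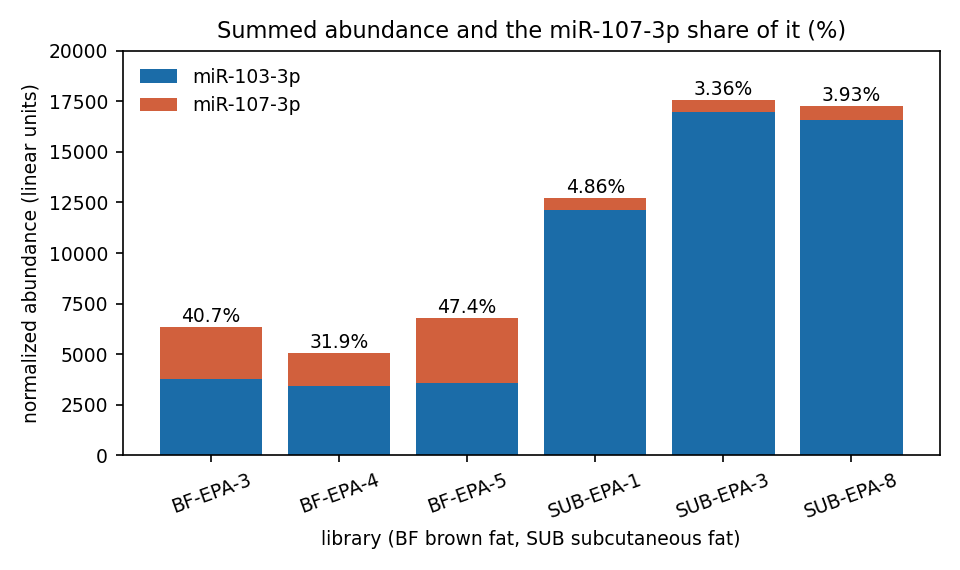
Stacked linear abundance (y axis, normalized units) of miR-103-3p and miR-107-3p in each library (x axis); the percentage over each bar is the share of miR-107-3p. The bars reach 5046 to 6803 units in brown and 12732 to 17568 in subcutaneous fat, with miR-107-3p at 31.9% to 47.4% and 3.36% to 4.86% of the bar.

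The opposite, 5p arms of the 3 hairpins, which are usually the less abundant product, would tell the loci apart. Their seeds are in capitals.
miR-103-1-5p: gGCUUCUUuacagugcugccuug
miR-103-2-5p: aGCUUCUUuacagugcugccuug
miR-107-5p: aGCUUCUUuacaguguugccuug

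From miR-103-1-5p to miR-103-2-5p the substitution is G1A, and from miR-103-2-5p to miR-107-5p it is C16U. All 3 arms were listed at the floor of the table, a linear value of 10, in all 6 libraries. No comparison of the Pank2 and Pank3 copies could therefore be made, and the 5p arms give no second reading of the miR-107 difference.

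The nearest relatives by sequence are the miR-15 and miR-16 family, known for restraining the cell cycle, in which the bases that open miR-103-3p and miR-107-3p (1 to 7, AGCAGCA) form the seed one base further in. The 6 family members that were tested are shown with the seed in capitals.
miR-15a-5p: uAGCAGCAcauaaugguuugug
miR-15b-5p: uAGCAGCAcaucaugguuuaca
miR-16-5p: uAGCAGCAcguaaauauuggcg
miR-195a-5p: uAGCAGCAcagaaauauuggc
miR-322-5p: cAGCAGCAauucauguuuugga
miR-497-5p: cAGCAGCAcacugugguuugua

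Of 13 relatives listed by name, 12 were in the table, 6 of these were at the floor in every library and 6 were tested. By RefSeq sequence, 10 arms of the table carry the offset seed, among them the 6 tested. The listed miR-503-5p and miR-497b do not carry it. MiR-497-5p was matched to RefSeq through its gene, Mir497. In brown fat, 5 of the 6 tested were lower and 0 higher, against 35.7% and 33.5% of all tested arms; their median difference was -1.79. With each library's GC trend removed, which leaves out miR-497-5p, 2 were lower and 1 higher. In that fit 83 of all 229 arms were lower and 65 higher. The counts of the relatives thus depend on how base composition is handled. The 2 miRNAs sharing the seed proper kept their directions there, at -1.57 for miR-103-3p and 2.41 for miR-107-3p.

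Among the relatives, miR-195a-5p had the most negative difference. It had log2 levels of 5.77, 6.71 and 6.28 in BF-EPA 3, 4 and 5 and of 9.76, 9.65 and 10.02 in SUB-EPA 1, 3 and 8. The difference was -3.56 ± 0.31 (SE, limma adjusted p = 0.000123), with no overlap between tissues. MiR-497-5p, encoded beside miR-195a, differed by -2.33 and miR-322-5p, the mouse counterpart of human miR-424, by -2.39.

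MiR-16-5p, the most abundant of the 6, had log2 levels of 11.21, 11.48 and 11.70 in brown and 12.59, 12.65 and 12.89 in subcutaneous fat, a difference of -1.25 ± 0.18 (SE, limma adjusted p = 0.00128). Removing the GC trend left -0.45 (limma adjusted p = 0.0626). MiR-15b-5p, processed from the same transcript as one copy of miR-16, differed by -0.91 (limma adjusted p = 0.00334) and by 0.48 with the GC trend removed. MiR-15a-5p did not pass the threshold (-0.96 ± 0.37 SE, limma adjusted p = 0.0565; 0.43 with the GC trend removed). Arms with the offset seed were thus on the side of miR-103-3p as deposited, and none stood with miR-107-3p.

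**Figure D4:**
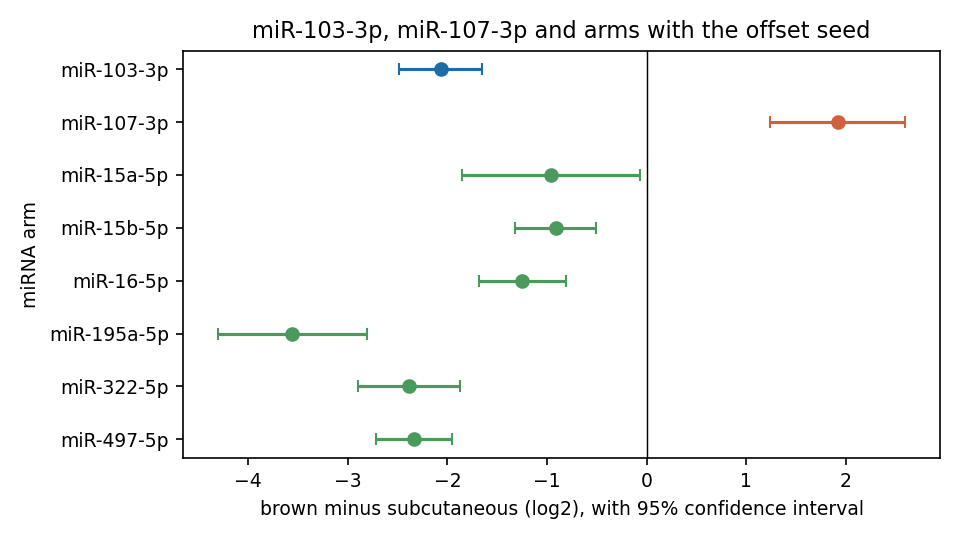
Brown minus subcutaneous log2 difference (x axis) of miR-103-3p, miR-107-3p and the 6 tested relatives (y axis), with unadjusted 95% confidence intervals from the limma fit. MiR-107-3p at 1.92 is to the right of zero and the other 7 arms are to the left, from -3.56 to -0.91.

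Other near-identical miRNAs give a setting for the split of miR-103-3p and miR-107-3p. This comparison was added after the values were seen. Among the 230 tested arms with a RefSeq mature sequence, 12 pairs of equal length differed at 1 base. Both arms of 7 pairs were called in the same direction, and in 1 pair, miR-103-3p and miR-107-3p, the calls were opposite. That count depends on the scaling. With median-of-ratios scaling 2 pairs had opposite calls, the second being miR-30e-5p (0.59) and miR-30a-5p (-1.54). There were 4 with the GC trend removed: besides miR-103-3p and miR-107-3p, they were miR-30e-5p and miR-30a-5p (1.57 and -1.15), let-7b-5p and let-7c-5p (0.76 and -1.36), and let-7a-5p and let-7f-5p (-0.72 and 1.39). Pairs share arms (let-7a-5p is in 3 of them), and the gap of each pair is a description with no test.

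The gap between the differences of miR-103-3p and miR-107-3p was 3.99, the largest of the pairs tested as deposited. It was also the largest under each of the 15 alternatives (3.76 to 4.23). With other filters, the other variance model, median-of-ratios scaling or GC removal, this gap stays at 3.99 by arithmetic. Those alternatives therefore do not test its size. With the floor of 10 subtracted and 1 added, the next gap came close, at 3.87 for miR-29a-3p and miR-29c-3p. As deposited the next was 2.71, between let-7b-5p (-0.05) and let-7c-5p (-2.75), which differ at base 17 of 22. MiR-29a-3p and miR-29c-3p, repressors of collagen genes, were 2.60 apart, and miR-30e-5p and miR-30a-5p 2.13 apart. Only the miR-103-3p and miR-107-3p pair had its differing base among the last 2 of the sequence.

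**Figure D5:**
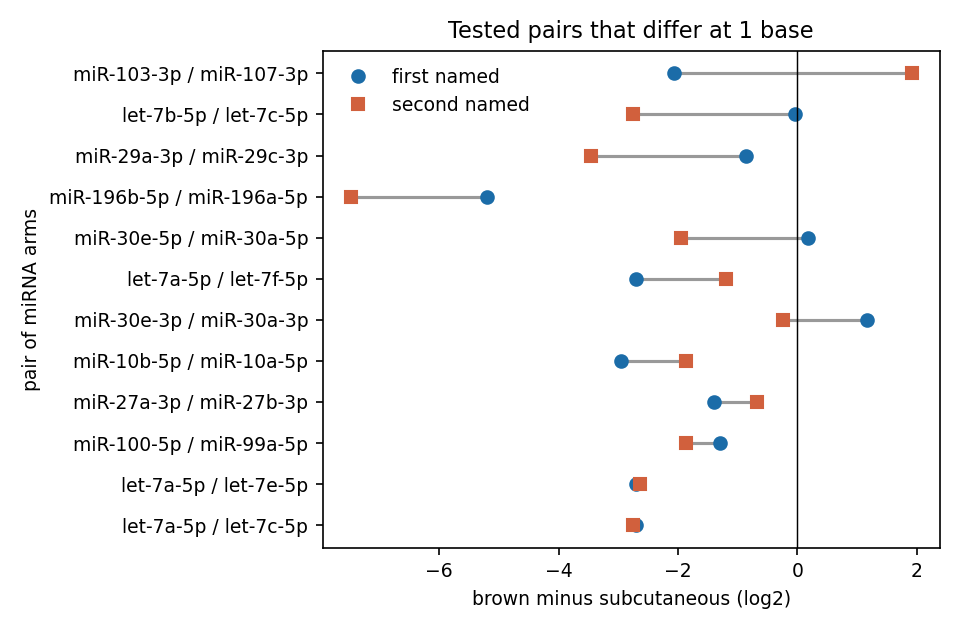
Brown minus subcutaneous log2 difference (x axis) of both arms of each of the 12 tested pairs (y axis) that differ at 1 base; circles mark the arm named first and squares the second. The line for miR-103-3p and miR-107-3p spans from -2.07 to 1.92, a gap of 3.99, and the next gap is 2.71.

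Of the 6 miRNAs closest to miR-103-3p in mean abundance over the 6 libraries, 3 were called lower in brown fat, 2 higher and 1 neither. The 3 next above it, miR-148a-3p, miR-423-5p and miR-423-3p, differed by -1.52, 2.89 and 1.54. The 3 next below, miR-25-3p, let-7i-5p and miR-30e-5p, differed by -1.23, -2.11 and 0.17. MiR-148a-3p (-0.12, limma adjusted p = 0.575) and let-7i-5p (-0.71, limma adjusted p = 0.0919) lost their calls with the GC trend removed. The means of the 6 as deposited lay between 12.26 and 12.91, with miR-103-3p at 12.84, and every gap is within the SD over libraries of miR-103-3p (1.15).

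Around miR-107-3p, at a mean of 10.25 ± 1.10 (SD over 6 libraries), 5 of the 6 neighbours were called higher in brown fat and 1 lower. The arms next above were miR-2137, miR-204-5p and miR-1249-3p, which differed by 5.71, 0.68 and 3.02. Next below were miR-130a-3p, with means of 8.72 in brown and 11.72 in subcutaneous fat, and miR-181a-2-3p and miR-5126, with differences of 2.82 and 4.87. The call of miR-204-5p was lost without any 1 of BF-EPA 3, 4, 5 and SUB-EPA 8 (limma adjusted p up to 0.106). With the GC trend removed, that of miR-5126 was -1.44 and that of miR-423-3p -0.24.

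By pattern, each miRNA centred on its own mean and compared by the root mean square difference over the 6 libraries, the 2 miRNAs were 2.02 log2 units from each other. The mean of the 2 was nearly flat across libraries, and the 5 arms most like it were miR-140-3p (0.12), miR-30e-5p (0.15), miR-339-5p (0.16), miR-361-5p (0.17) and miR-30c-2-3p (0.18). None of these 5 was called, with differences from -0.10 to 0.17, which follows from choosing arms like a nearly flat mean. Once the GC trend was removed, 3 of them were: miR-140-3p (-0.63), miR-30e-5p (1.57) and miR-339-5p (-1.87), and miR-30e-5p also with median-of-ratios scaling (0.59).

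The same measure for each miRNA alone was added after the values were seen. Arms picked in this way share the direction of the miRNA by selection. Nearest to miR-103-3p were miR-30a-5p (0.11), miR-99b-3p (0.13), miR-143-3p (0.16), miR-126-3p (0.19) and miR-322-5p (0.24), all lower in brown fat. Of these, miR-143-3p is known as a promoter of adipocyte differentiation and miR-126-3p as an endothelial miRNA. Nearest to miR-107-3p were let-7b-3p (0.27), miR-210-5p (0.29), miR-320-3p (0.32), miR-485-3p (0.34) and miR-92a-3p (0.36), all higher in brown fat. With the GC trend removed, miR-210-5p differed by -0.22 and miR-92a-3p lost its call (limma adjusted p = 0.0541).

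Among other miRNAs linked to insulin action, more were called lower in brown fat than higher. Of 27 listed, 22 were tested, of which 15 were lower and 2 higher in brown fat, beside 35.7% and 33.5% of all tested arms, with a median difference of -1.79 against -0.45 over all tested arms; 8 of the 27 are let-7 arms, some of which differ at 1 base. With the GC trend removed 7 were lower and 5 higher, beside 83 lower and 65 higher of the 229 arms in that fit. It leaves out arms without a RefSeq mature sequence, among them miR-126-3p, miR-143-3p, miR-122-5p and miR-320-3p. These counts thus cover fewer than the 22 arms tested as deposited. The most negative differences were those of miR-223-3p (-5.51), a myeloid miRNA, miR-29c-3p (-3.46) and miR-29b-3p (-2.93), and at least 1 brown library of each was at the floor. MiR-29c-3p (-1.48, limma adjusted p = 0.109) and miR-29b-3p (-0.74, limma adjusted p = 0.235) lost their calls with the GC trend removed. The 2 higher arms were miR-122-5p (4.87), a liver miRNA at the floor in all 3 subcutaneous libraries that lost its call without both libraries numbered 3 (limma adjusted p = 0.0807), and miR-320-3p (1.96), which is made without Drosha.

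Of 18 listed arms from introns of metabolic or other well-described host genes, 11 were tested, with 6 lower and 3 higher in brown fat, beside 35.7% and 33.5% of all tested arms, and a median difference of -0.64. The higher ones were miR-455-3p (5.83) and both arms of miR-378a, whose host Ppargc1b is a coactivator of mitochondrial genes (4.10 for miR-378a-5p and 3.37 for miR-378a-3p). The most negative were miR-335-3p (-7.46) and miR-335-5p (-4.89), from the imprinted gene Mest and both at the floor in every brown library, and miR-26b-5p (-3.25), from Ctdsp1. Both arms of miR-378a were thus called in one direction, as were both of miR-335.

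Markers of the tissues went with the labels. All 4 tested brown fat markers were higher in brown fat (the fifth, miR-455-5p, was at the floor everywhere). Both miRNAs listed for body position, miR-196a-5p and miR-10b-5p, were higher in subcutaneous fat. The summed log2 level of the brown list was 18.81 to 18.85 in brown and 15.31 to 15.61 in subcutaneous fat, and that of the position list 13.51 to 13.94 and 16.53 to 16.92. Markers of other cell types also differed, and their part in the miR-103-3p and miR-107-3p values was not tested. The endothelial miR-126-3p differed by -2.04, and the summed level of its list was 10.76 to 11.18 in brown and 12.89 to 13.09 in subcutaneous fat. Both tested myeloid markers were lower in brown fat (summed log2 level 6.65 to 7.29 against 9.57 to 10.45), with miR-142-3p at the floor throughout. The red cell miRNA miR-451a differed by -1.49 (summed level 8.29 to 9.23 against 9.84 to 10.45), or by 0.50 with the GC trend removed. Both miR-144 arms were at the floor. MiR-486-5p, also a red cell miRNA but not on the list, went the other way, with means of 17.68 in brown and 14.73 in subcutaneous fat. Its difference was 2.95 (limma adjusted p = 0.000118), so the red cell miRNAs gave no single direction. For lymphocytes the list held 1 arm alone, miR-150-5p, which was higher in brown fat by 1.27 (15.02 to 15.47 against 13.69 to 14.24). Whether brown fat held more lymphocytes was not tested. The liver marker was described above (5.60 to 9.97 against the floor).

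Muscle and epithelial markers varied between single libraries. The summed muscle level ran from 10.35 to 17.21 in brown and from 10.76 to 16.91 in subcutaneous fat, with 0 of 3 tested arms called and miR-1a-3p at the floor. BF-EPA 4, with miR-133a-3p at 17.20, was the brown library lowest in both miR-103-3p and miR-107-3p. SUB-EPA 3, with miR-133a-3p at 16.90, was the subcutaneous one highest in miR-103-3p and lowest in miR-107-3p. Without these 2 libraries miR-103-3p differed by -1.95 (limma adjusted p = 0.00573) and miR-107-3p by 2.16 (limma adjusted p = 0.00405). The summed epithelial level was 5.32 to 5.91 in brown and 6.38 to 15.06 in subcutaneous fat, with miR-205-5p at 15.02 in SUB-EPA 1, the subcutaneous library lowest in miR-103-3p. Without SUB-EPA 1, miR-103-3p differed by -2.22 and miR-107-3p by 1.91.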

How the data were processed

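The authors deposited log2 values for 1251 miRNA arms in 6 columns. Mapping to mm10, scaling of unique read counts by the usable total and an addition of 40 counts are recorded in the design text, per the labels. For the aligner, trimming and miRNA annotation: not given in the sources used here. Deposited values show a floor of 10 on the linear scale instead of an offset of 40, and nearly equal totals (about 2.42e+06 units). No depth of each library, counting interval or detection limit could therefore be given from them. An approximate number of mapped reads is recorded in the design text.

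Tissues were compared with limma 3.58.1 (R 4.3.3, mean-variance trend, Benjamini-Hochberg adjustment at 0.05) on the 269 arms whose mean above the floor was at least 24.05 linear units, a fixed share of the mean library total. The fit was tested on simulated data. The ratio was tested with an exact permutation test (scipy 1.17.1), and figures used matplotlib 3.10.9. Nothing says that libraries came from separate mice, so p-values measure only the spread between these samples. Mature and hairpin sequences are from RefSeq (GRCm38.p6) and host introns from GENCODE M21. GC content was known for 229 tested arms (85.1%).

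Members and lists were chosen with earlier results of these data known. Named besides the pair were its other hairpin arms, the tested relatives, the 5 arms nearest in pattern, the 3 next above and below in level, up to 3 of each list with the largest differences each way, and cell type markers. Alternatives were other offsets, filters, scalings, a variance model, removal of GC trends and leaving out libraries; a fit without BF-EPA 4 and SUB-EPA 3 (the most miR-133a-3p), the 1-base pairs and the patterns of single miRNAs were added after seeing the data.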

Additional observations from a re-analysis of the deposited data

How the results depend on the processing

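The difference of miR-103-3p lay between -2.22 and -1.57 under 15 alternatives (highest limma adjusted p 0.00782) and that of miR-107-3p between 1.70 and 2.41 (highest limma adjusted p 0.0357, without both libraries numbered 3). Leaving out 1 library gave -2.22 to -1.98 and 1.70 to 2.20. The log2 ratio difference was 3.76 to 4.23 without 1 library, too few for an exact test to pass. The difference in the sum was -0.96 with median-of-ratios scaling and -1.53 to -1.25 without 1 library. Arms called higher in brown fat numbered 58 with the filter 10 times as strict, which tests 157 arms. With the GC trend removed, 1 seed relative was higher and 2 lower, and 5 insulin arms were higher and 7 lower. That fit holds fewer arms of both lists, and of all its 229 arms 65 were higher and 83 lower. Without both libraries numbered 3, 1 insulin arm was higher. The cause was not tested.

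No paired analysis was made. The groups share only the number 3, and nothing says whether libraries of the same number came from the same mouse.

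Directions turned for these arms. With the GC trend removed: let-7b-5p 0.76, miR-140-3p -0.63, miR-15a-5p 0.43, miR-15b-5p 0.48, miR-200b-3p 0.45, miR-210-5p -0.22, miR-29a-3p 0.53, miR-30c-2-3p 0.15, miR-423-3p -0.24, miR-451a 0.50 and miR-5126 -1.44. With median-of-ratios scaling: let-7b-5p 0.37, miR-133a-3p 0.10, miR-30c-2-3p 0.36 and miR-339-5p 0.32. Without both libraries numbered 3: miR-133a-3p 2.82, miR-133b-3p 1.09, miR-30c-2-3p 0.083, miR-339-5p 0.038 and miR-361-5p -0.22. Without BF-EPA 4 and SUB-EPA 3, a choice added after seeing the data, miR-30c-2-3p stood at 0.14. Without 1 library: let-7b-5p -0.10 to 0.056, miR-133a-3p -2.24 to 1.31, miR-133b-3p -3.02 to 0.15, miR-200b-3p -2.57 to 0.53, miR-30c-2-3p -0.24 to 0.099 and miR-361-5p -0.18 to 0.29. The design text records an approximate number of mapped reads, but the depth of each library is unknown. The limit that depth sets on these values therefore cannot be given.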
